A study of Mus musculus with 4 samples.

Results

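Cortical and hippocampal GABAergic interneurons that arise in the caudal ganglionic eminence (CGE) are marked by a set of regulatory genes, and the chromatin of 9 of these genes was followed here in nuclei from adolescent mouse brain. The 9 genes were Prox1, Nr2f1, Nr2f2, Sp8, Sp9, Npas1, Npas3, Adarb2 and Nr2e1. They were chosen by name, from a total of 21924 protein-coding genes, of which 14622 could be tested. All 9 could be tested. The motif tables held 579 transcription factor motifs, and 6 had names beginning with NR2F, SP8 or PROX1. Nuclei were sorted for GFP from mice of genotype Dlx6aCre;Sun1/sfGFP at postnatal day 30, with 2 libraries from cortex and 2 from hippocampus. In both brain regions the label therefore depends on Cre driven by Dlx6a regulatory sequence, which is active in forebrain inhibitory neurons, and on a tagged nuclear envelope protein. No other allele or treatment was listed, and no wild-type or unsorted control was used.

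Interneurons of the cortex and hippocampus come mainly from the medial ganglionic eminence (MGE) and the CGE. The LIM homeobox factor Lhx6 is kept in MGE-derived cells, which include the Pvalb and Sst types, whereas Prox1 and Nr2f2 are kept in many CGE-derived cells, which include the Vip type and many Lamp5 cells. Prox1 encodes a homeodomain factor, Nr2f1 and Nr2f2 encode the orphan nuclear receptors COUP-TFI and COUP-TFII, and Nr2e1 encodes the related receptor Tlx, known from neural stem cells. Sp8 and Sp9 encode zinc-finger factors of the Sp family, and Npas1 and Npas3 encode bHLH-PAS factors. Adarb2 differs from the other members in that it encodes an RNA-binding relative of the RNA-editing enzymes and is no transcription factor, although it is a widely used marker of CGE-derived types. Several members have other sites of expression: Sp9 is found in MGE-derived as well as CGE-derived cells, Nr2f1 and Npas3 are broadly expressed, and Prox1 is also found in the oligodendrocyte lineage.

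Open chromatin was measured as cut sites of the Tn5 transposase in peaks. The 4 libraries held 2355 to 5576 nuclei and 32005984 to 117290059 cut sites, and depth was most unequal within cortex, with medians of 47236 cut sites a nucleus in replicate 1 and 7352 in replicate 2. Peaks had been called separately in each library, so tests used 46698 common regions, which are merged regions with a peak in every library. Of these, 31 overlapped the body of a member gene or the 2000 bp upstream. The window from 2000 bp upstream to 500 bp downstream of the gene start was overlapped by 8 of them (promoter regions) and not by 23 (distal regions). A region could extend beyond these windows. Pairs of libraries shared 11 to 47 nuclear barcodes. The labels do not say whether libraries came from separate animals, so the spread behind the p-values may be technical. In tests between brain regions it is the spread between libraries. In tests between classes of nuclei, with library as a block, it is how far the class difference varied among libraries. In both kinds of test edgeR pulls each feature's spread toward that shared by all features. With so few libraries, a p-value therefore rests in part on the spread of other features.

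Nuclei were split by whether they had at least 1 cut site in the peaks of Lhx6 (chr2:36081953-36105408). Nuclei with Lhx6 counts were deeper in every library, with medians of 51219, 9244.5, 15374 and 17246.5 cut sites in cortex replicates 1 and 2 and hippocampus replicates 1 and 2, against 31930, 6973, 9762 and 13002 without. Nuclei with Lhx6 counts made up 79.2% and 17.4% in cortex replicates 1 and 2 and 47.0% and 40.8% in hippocampus replicates 1 and 2. When the Lhx6 counts of each nucleus were thinned to a depth of 5000 cut sites, these shares were 40.9%, 15.5%, 37.0% and 26.9%. Among nuclei rich in oligodendrocyte-gene cut sites and without any at Gad1, Gad2 or Slc32a1 after thinning, 10.8% to 22.5% had an Lhx6 count. Before thinning, 2286 of 2355 nuclei in cortex replicate 1 had a cut site at these GABA genes. The class can therefore hold interneurons, and its share is not a background level. Since the shares changed with thinning, a nucleus with Lhx6 counts is not taken here as an Lhx6-expressing cell. In sums over nuclei, fewer cells of a type and less signal per cell cannot be told apart.

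The regions whose accessibility differed most by Lhx6 counts are shown first. For each of 4 genes, the sequence is the 300 bases at the middle of its common region with the largest difference among those that passed the test, read from the GRCm38 plus strand. All 4 windows are intronic. Capitals mark any match, on either strand, to AGGTCA (the core of NR2F motifs), GGGCGG (an Sp box), AAGACG (part of the PROX1 motif) or TAATTA (a core common to LIM homeobox factors).
Sp8, chr12:118846817-118847116: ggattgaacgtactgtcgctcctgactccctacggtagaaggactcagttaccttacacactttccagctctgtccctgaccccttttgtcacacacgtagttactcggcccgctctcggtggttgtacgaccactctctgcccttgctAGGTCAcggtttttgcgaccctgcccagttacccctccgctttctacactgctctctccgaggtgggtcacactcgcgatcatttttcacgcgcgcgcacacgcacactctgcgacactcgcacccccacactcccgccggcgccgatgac
Adarb2, chr13:8347246-8347545: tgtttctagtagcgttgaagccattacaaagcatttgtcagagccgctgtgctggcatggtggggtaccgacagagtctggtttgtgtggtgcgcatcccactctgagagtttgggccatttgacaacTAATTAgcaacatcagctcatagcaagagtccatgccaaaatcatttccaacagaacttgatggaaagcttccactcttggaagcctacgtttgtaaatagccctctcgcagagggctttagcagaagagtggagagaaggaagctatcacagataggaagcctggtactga
Npas3, chr12:53971351-53971650: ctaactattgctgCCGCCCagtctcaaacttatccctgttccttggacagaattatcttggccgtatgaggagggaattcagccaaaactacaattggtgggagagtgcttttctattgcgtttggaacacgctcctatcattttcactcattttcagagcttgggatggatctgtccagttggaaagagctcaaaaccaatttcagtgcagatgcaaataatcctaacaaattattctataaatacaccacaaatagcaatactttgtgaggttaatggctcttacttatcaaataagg
Prox1, chr1:190138047-190138346: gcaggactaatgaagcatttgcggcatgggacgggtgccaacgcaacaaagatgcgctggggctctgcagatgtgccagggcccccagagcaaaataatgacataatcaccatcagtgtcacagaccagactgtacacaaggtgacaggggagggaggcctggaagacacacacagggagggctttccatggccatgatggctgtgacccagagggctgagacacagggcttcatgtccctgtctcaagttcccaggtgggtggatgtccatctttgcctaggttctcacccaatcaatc

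The Sp8 window held 1 match to AGGTCA, the Adarb2 window 1 to TAATTA and the Npas3 window 1 to GGGCGG, while the Prox1 window held none of the 4 letter strings. Such matches were common. Over the middle 300 bases of all 46698 common regions, 14.0% held AGGTCA, 20.3% GGGCGG, 5.16% AAGACG and 6.31% TAATTA. Over the 31 regions of the 9 genes, 5 held AGGTCA, 5 GGGCGG, 1 AAGACG and 5 TAATTA. A match is a description of these letters and not a binding site. The windows had 58.7% G and C bases at Sp8, 55.3% at Prox1, 47.7% at Adarb2 and 40.0% at Npas3.

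In each library's own peaks, most of the 9 genes were somewhat less accessible per length than the median gene. The level used was the density of cut sites per kb of peak, divided by the level of the median gene with a peak in the same library, because peak lengths differed strongly between libraries. Nr2f2 had a mean ratio of 0.946 ± 0.274 (SD, n = 4 libraries) and Nr2f1 one of 0.909 ± 0.058. Sp9 followed at 0.799 ± 0.051, then Npas1 at 0.759 ± 0.063, Adarb2 at 0.744 ± 0.215, Nr2e1 at 0.719 ± 0.178, Npas3 at 0.712 ± 0.091 and Prox1 at 0.687 ± 0.137. Sp8 was lowest, at 0.489 ± 0.115. From Nr2f2 to Prox1 each gene differed from its neighbour in this order by less than the larger of their SDs, except that Sp9 lay below Nr2f1 by more than either SD. Only Sp8 stood below its neighbour, Prox1, by more than either SD among the lower genes. In cortex replicate 1, the library with most Sp8 cut sites (986), Sp8 at 0.497 and Prox1 at 0.502 were about equal. The gap thus came from libraries with few Sp8 cut sites. Ratios above 1 were found in cortex replicate 2 alone, for Nr2f2 at 1.35 and Adarb2 at 1.06.

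**Figure D1:**
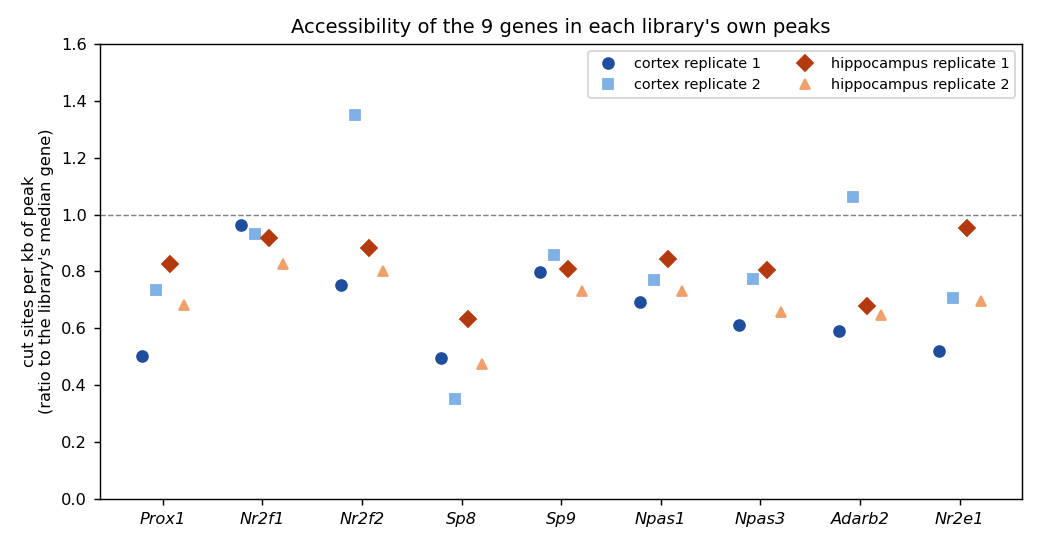
Level of the 9 genes (x axis) in each library's own peaks, as cut sites per kb of peak divided by the value of the library's median gene (y axis). Each point is a library, and the dashed line marks the median gene. Sp8 lies lowest, between 0.353 and 0.634, and Nr2f1 lies in the narrow range of 0.827 to 0.962.

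The genes also differed in how their signal was spread. Npas3 and Adarb2 are very long genes (823.499 and 565.882 kb) with many intragenic peaks. Npas3 (chr12:53248677-54072175) had 88, 21, 80 and 36 peaks in cortex replicates 1 and 2 and hippocampus replicates 1 and 2, and 7.48% to 16.0% of its cut sites lay at the promoter. Adarb2 (chr13:8202866-8768747) had 22, 4, 58 and 19 peaks in the same order. Hippocampus replicate 1 was thus the library with most Adarb2 peaks, and 13.4% of its Adarb2 cut sites lay at the promoter, against 31.9% to 77.8% in the other libraries. At the compact gene Nr2f1 (chr13:78188973-78199757) the promoter held 79.9% to 92.8% of cut sites. Nr2e1 (chr10:42561963-42583632) was similar, at 78.8% to 100% of cut sites, although its region is shared with the neighbouring gene Ostm1, so the signal of both genes cannot be told apart. For Nr2f2 (chr7:70351944-70366735) and Npas1 (chr7:16455721-16477728) no peak touched the start of the longest gene model, and their strongest region lay at the start of another annotated transcript. Sp8 (chr12:118846329-118852576) was poorly measured: its peaks spanned 1427, 108, 15 and 309 bp and held 986, 37, 7 and 124 cut sites.

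The comparison of brain regions asks whether these genes are more open in hippocampal or in cortical inhibitory nuclei. Prox1, with 60.8 and 32.2 normalised CPM (counts scaled to a common library total) in cortex against 43.8 and 49.6 in hippocampus, lay at the same mean level in both. Nr2f2 had 59.6 and 35.5 CPM in cortex against 61.6 and 83.6 in hippocampus. Npas1 had 35.6 and 24.5 CPM in cortex against 45.0 and 46.7 in hippocampus, and Nr2e1 had 24.4 and 11.1 against 26.2 and 35.0. Adarb2 had 38.3 and 30.2 CPM in cortex against 52.9 and 41.2 in hippocampus. Sp8, at 7.78 and 1.26 CPM in cortex against 0.15 and 3.13 in hippocampus, rested on very few cut sites.

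None of the 9 genes passed a Benjamini-Hochberg adjusted p of 0.05 in edgeR's quasi-likelihood test, and neither did any of the 14622 genes, so the background share called was 0%. At an unadjusted p under 0.05 there were 511 genes and 1 member, Npas1, with a log2 difference (hippocampus minus cortex) of 0.61 ± 0.21 (SE). DESeq2 called 21 genes and no member. The differences were 0.61 ± 0.28 for Nr2f2, 0.78 ± 0.38 for Nr2e1 and 0.45 ± 0.20 for Adarb2. The median over the 9 genes was 0.28, against -0.01 over all genes. Over the other gene lists read below it ran from -0.44 for MGE genes to 0.26 for oligodendrocyte-lineage genes. It was 0.20 for pan-GABA genes and 0.20 for other CGE genes, so a positive median was not particular to the members. Cortex replicate 2 had the lowest pan-GABA sum, at 1233 CPM, against 1665 in cortex replicate 1 and 1846 and 1649 in hippocampus. The result hinged on 1 library. Without cortex replicate 1, which had the greatest depth, 4 members passed with higher values in hippocampus (Nr2f2, Sp9, Npas1 and Nr2e1), among 365 genes in all, and cortex replicate 2 then stood alone for its group.

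Adarb2 and Sp8 were lower in nuclei with Lhx6 counts, as was Npas1 by a smaller margin, and Sp9 was higher. Prox1 was lower in all 4 libraries but by very unequal amounts, and Nr2f1 had ratios of 0.989 to 1.02. In all, 3 members were lower and 1 was higher in edgeR's test with library as a block. The background was 11.8% of 14622 genes called, with 4.98% lower and 6.87% higher. The median log2 difference over the 9 genes was -0.27, against 0.00 over all genes.

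Adarb2 had 33.8, 25.1, 44.0 and 32.6 CPM in nuclei with Lhx6 counts, in the order cortex replicates 1 and 2 and hippocampus replicates 1 and 2. In nuclei without them it had 66.3, 31.8, 65.4 and 49.2 CPM. Every library was lower with Lhx6 counts, by the least in cortex replicate 2, although the ranges of the classes overlapped between libraries. The log2 difference was -0.65 ± 0.08 (SE, 4 libraries, adjusted p = 0.0018, edgeR), and it passed with each library left out.

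Sp8 had 5.61, 0.46, 0.15 and 2.19 CPM with Lhx6 counts and 21.2, 1.50, 0.16 and 4.00 CPM without. The signal was concentrated in cortex replicate 1, and in hippocampus replicate 1 it was too low to compare. Its log2 difference was -1.48 ± 0.28 (adjusted p = 0.00632, edgeR). Without cortex replicate 1 the difference was -0.92 and did not pass (adjusted p = 0.0809).

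Sp9, the paralogue of Sp8 (chr2:73271925-73284706), went the other way. It had 137, 49.1, 101 and 139 CPM with Lhx6 counts and 110, 43.8, 81.0 and 112 CPM without. All libraries were higher with Lhx6 counts, by 1.12 to 1.25 times. Its log2 difference was 0.29 ± 0.05 (adjusted p = 0.00244, edgeR), and it passed with each library left out.

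Npas1, a bHLH-PAS repressor, had 34.0, 21.4, 43.4 and 42.1 CPM with Lhx6 counts and 45.7, 25.5, 47.5 and 51.1 CPM without. Each library was lower with Lhx6 counts, with ratios from 0.75 to 0.91. The log2 difference was -0.27 ± 0.06 (adjusted p = 0.0179, edgeR). It did not pass without hippocampus replicate 2 (adjusted p = 0.0857), and it shrank to -0.09 with the thinned gate (adjusted p = 0.452).

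Prox1 (chr1:190118035-190170714) had 48.8, 27.6, 40.9 and 40.2 CPM with Lhx6 counts and 134, 33.6, 48.0 and 58.3 CPM without. It was lower with Lhx6 counts in 4 of 4 libraries, yet the ratio of with to without ranged from 0.36 in cortex replicate 1 to 0.85 in hippocampus replicate 1. With this spread the log2 difference of -0.70 ± 0.24 did not pass (adjusted p = 0.136, edgeR). It passed without cortex replicate 1, at -0.36 (adjusted p = 0.000676), and with the thinned gate, at -0.48 (adjusted p = 2.13e-06). Under the thinned gate 5 of the 9 genes were called, among 6.54% of all genes, and the fifth beside Prox1, Adarb2, Sp8 and Sp9 was Nr2f2, at -0.20 (adjusted p = 0.0169).

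The remaining members did not pass. Nr2f1 had 170, 98.5, 139 and 154 CPM with Lhx6 counts and 166, 99.6, 137 and 151 CPM without, a log2 difference of 0.02 ± 0.04. Npas3 had a difference of -0.09 ± 0.04. Nr2f2 differed by -0.26 ± 0.11 and Nr2e1 by -0.54 ± 0.27, and both are taken up with the contrast between brain regions.

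**Figure D2:**
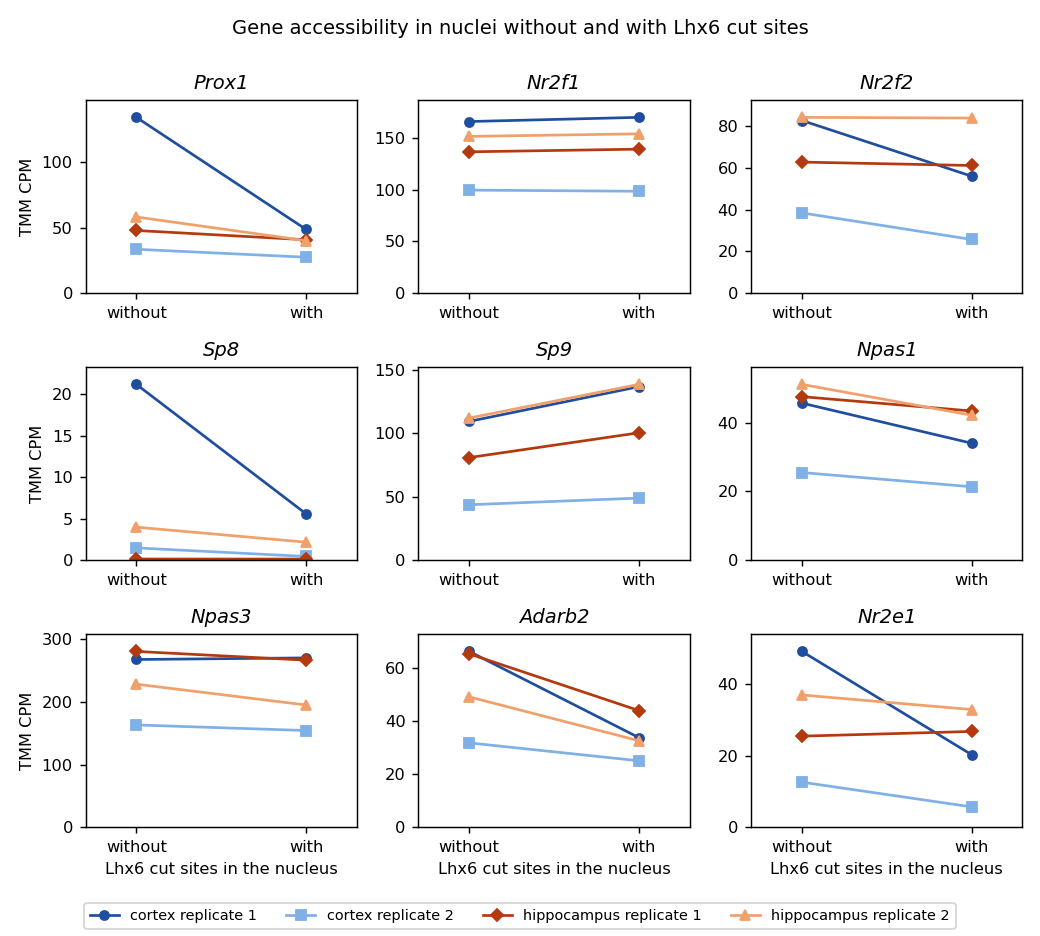
Normalised accessibility (TMM CPM, y axis from 0) of each gene summed over nuclei without and with Lhx6 cut sites (x axis), with a line for each library. Adarb2 falls and Sp9 rises from left to right in all 4 libraries, whereas the Prox1 line is steep in cortex replicate 1 (134 without and 48.8 CPM with) and shallower in the other libraries.

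Other genes of known lineage were read in the same fit. Of the 9 MGE genes listed 7 were tested, and 4 were higher in nuclei with Lhx6 counts, among them the neuropeptide gene Sst at 0.84 ± 0.14 and the chromatin organiser Satb1 at 0.45 ± 0.09. Of the 11 other CGE genes 9 were tested, and 3 were lower. These were the chemokine gene Cxcl14 at -1.33 ± 0.16, the serotonin receptor gene Htr3a at -0.83 ± 0.11 and the cannabinoid receptor gene Cnr1 at -0.27 ± 0.06. The CGE list also had 1 gene that was higher, Reln at 0.23 ± 0.04 (named after its value was seen), which encodes an extracellular glycoprotein also made by Sst cells. None of the 8 pan-GABA genes passed. Of 14 tested relatives of the members in the Sp, nuclear receptor, Prox, Npas and Adar families 3 were lower, namely Sp1 at -0.22 ± 0.05, Sp4 at -0.19 ± 0.04 and Sp2 at -0.15 ± 0.04.

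Markers of other cells also moved with the split. Of the 10 oligodendrocyte-lineage genes 6 were tested and 3 were lower with Lhx6 counts: Cldn11, a myelin tight-junction gene, at -0.73 ± 0.14, and the lineage factors Olig1 at -0.59 ± 0.16 and Sox10 at -0.53 ± 0.16. The list summed to 212 to 285 CPM with Lhx6 counts and 247 to 298 CPM without. Mbp, which encodes a major myelin protein, did not pass. Among microglial genes 2 of 3 were higher (P2ry12 at 0.86 ± 0.23 and Csf1r at 0.39 ± 0.09), with sums of 218 to 263 CPM against 217 to 268 CPM. Pecam1, 1 of 3 endothelial genes, was lower at -0.19 ± 0.06, and the list summed to 63.8 to 89.6 CPM against 79.8 to 91.5 CPM. None of 4 astrocyte, 1 excitatory or 6 striatal genes passed. The part of these cells in the members' differences was not tested. With only nuclei that had a Gad1, Gad2 or Slc32a1 cut site, 4 members were called, against 4.14% of all genes.

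Promoter and distal regions were then tested apart. At promoters, 3 of 7 genes with a promoter region passed, against a background of 10.1%: Adarb2 at -0.62 ± 0.07, Sp8 at -1.49 ± 0.26 and Sp9 at 0.22 ± 0.05. The Sp8 region reached the promoter window only through the peak of cortex replicate 1. In cortex replicate 2 and both hippocampal libraries the Sp8 peak lay outside that window, so promoter and distal signal are not told apart for Sp8. At distal regions 3 of 7 genes passed as well, against 12.4%: Adarb2 at -0.78 ± 0.21, Npas1 at -0.33 ± 0.08 and Sp9 at 0.35 ± 0.07. The Sp9 promoter value was lower in cortex replicate 2 with Lhx6 counts (ratio 0.994), and it did not pass with the thinned gate, at 0.086 (adjusted p = 0.473), or in nuclei with a GABA-gene cut site, at 0.14 (adjusted p = 0.162). The distal calls were fragile, for the members and over all genes alike. No member passed at distal regions without cortex replicate 2 or without either hippocampal library, and 4 did without cortex replicate 1. Over all genes the distal test called 993 with every library. It called 35, 370 and 2 without cortex replicate 2, hippocampus replicate 1 and hippocampus replicate 2, and 1240 without cortex replicate 1. At promoters, Sp8 did not pass without cortex replicate 1, and Sp9 did not pass without cortex replicate 1 or either hippocampal library.

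Of the 31 single regions 8 passed, against a background of 11.5% of all common regions, with 7 lower and 1 higher in nuclei with Lhx6 counts. Prox1 contributed 3 of its 4 regions, although its gene sum did not pass. The region spanning its start (chr1:190168642-190171202, with untranslated exon sequence) had 21.6, 7.63, 15.2 and 19.3 CPM with Lhx6 counts and 55.0, 12.3, 18.5 and 31.7 CPM without, a log2 difference of -0.78 ± 0.16 (adjusted p = 0.0244, edgeR). The region upstream of it (chr1:190172506-190175770) differed by -0.99 ± 0.22. Its middle lies at -3424 bp from the gene start, and only its edge reaches the promoter window. The intronic region shown above (chr1:190137816-190138577), 32518 bp into the gene, had 4.74, 2.18, 7.17 and 8.39 CPM with Lhx6 counts and 17.1, 5.09, 11.2 and 12.5 CPM without. It differed by -1.06 ± 0.23 (adjusted p = 0.0284, edgeR), but with the thinned gate by -0.45 (adjusted p = 0.0596). In nuclei with a GABA-gene cut site, or without cortex replicate 2 or hippocampus replicate 2, neither this region nor the one at the start passed. Each of these 3 regions was lower in all 4 libraries. The other intronic region (chr1:190143449-190144512) did not pass, at -0.26 ± 0.28, and was lower in cortex replicate 1 alone.

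At Adarb2 the start region (chr13:8202278-8204002, coding exon and UTR) had 25.5, 22.1, 26.2 and 22.4 CPM with Lhx6 counts and 48.3, 28.0, 39.0 and 38.3 CPM without. The classes did not overlap here across libraries, and the log2 difference was -0.67 ± 0.10 (adjusted p = 0.00879, edgeR). The intronic region 144529 bp downstream of the start, whose middle is shown above, had 2.11, 0.00, 4.06 and 2.83 CPM with Lhx6 counts and 8.89, 0.31, 8.94 and 5.26 CPM without. Its difference was -1.41 ± 0.27, and cortex replicate 2 had hardly any cut site there, with a peak of 25 bp.

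Of the 14 Npas3 regions 7 were lower and 7 higher by point estimate, and 1 passed. This region (chr12:53970932-53972069) lies in an intron 722823 bp from the start. It had 9.21, 11.1, 14.8 and 12.7 CPM with Lhx6 counts and 35.6, 27.2, 26.7 and 24.4 CPM without, so every value without lay above every value with. The difference was -1.26 ± 0.18 (adjusted p = 0.00876, edgeR). The region at the Npas3 start (chr12:53246337-53249215) differed by -0.13 ± 0.07.

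At Sp9 the distal region (chr2:73277025-73282409, which includes UTR sequence) had 56.5, 21.5, 45.2 and 69.5 CPM with Lhx6 counts and 42.6, 15.8, 37.0 and 54.8 CPM without. It was higher in all 4 libraries, by 1.22 to 1.36 times, with a log2 difference of 0.36 ± 0.05 (adjusted p = 0.0114, edgeR). The region at the Sp9 start (chr2:73270090-73275064) did not pass, at 0.14 ± 0.05. The only Sp8 region (chr12:118846541-118847392) differed by -1.47 ± 0.30. The count of passing regions was 11 without cortex replicate 1 but 2 without cortex replicate 2 and 1 without hippocampus replicate 2. Over all common regions the counts were 6035, 339 and 205 in the same order, against 5361 with every library.

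**Figure D3:**
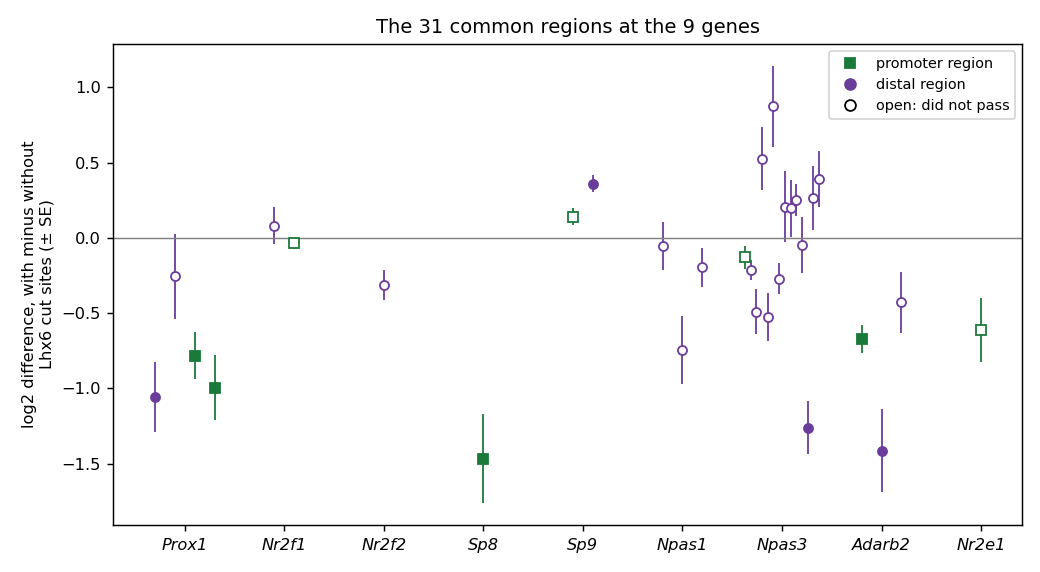
Log2 difference in accessibility between nuclei with and without Lhx6 cut sites (y axis) for each of the 31 common regions, grouped by gene (x axis). Bars are ± SE derived from edgeR's F value. Squares are promoter regions and circles are distal regions, filled where edgeR's adjusted p was under 0.05. All but 1 of the 8 filled symbols lie below 0, and the 14 Npas3 regions scatter on both sides.

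Peaks of each library were also read alone. Among distal Adarb2 peaks with at least 20 cut sites, 15 of 20 were lower with Lhx6 counts in cortex replicate 1, 2 of 2 in cortex replicate 2, 48 of 52 in hippocampus replicate 1 and 12 of 15 in hippocampus replicate 2. Over all its own peaks, Adarb2 in hippocampus replicate 1 had 140 CPM with and 207 CPM without Lhx6 counts. For Npas3 the split was even in cortex and leaned lower in hippocampus: 35 of 82 and 7 of 16 distal peaks were lower in the cortical libraries, and 44 of 73 and 22 of 32 in the hippocampal ones. Peaks of a gene share nuclei and are not replicates, and these counts carry no test.

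Each nucleus was thinned once more to 5000 cut sites, the classes were set by the Lhx6 counts left after thinning, and the share with at least 1 cut site in a gene's own peaks was taken. For Prox1 in cortex replicate 1 the share was 14.4% of 985 nuclei with Lhx6 counts (95% Wilson interval 12.4% to 16.7%) and 26.2% of 1368 without (24.0% to 28.6%). In cortex replicate 2 the shares were equal at 11.6%. In hippocampus they were 14.2% and 15.8% in replicate 1 and 12.6% and 17.3% in replicate 2. The oligodendrocyte-gene-rich nuclei had Prox1 shares of 28.2%, 7.46%, 19.3% and 21.0%, from 85, 67, 150 and 262 nuclei. The 95% Wilson interval was 19.8% to 38.6% in cortex replicate 1, and in both hippocampal libraries, too, it overlapped that of nuclei without Lhx6 counts. In hippocampus replicate 1, at 13.8% to 26.4%, it also overlapped that of nuclei with Lhx6 counts, 12.6% to 16.0%. In cortex replicate 2, at 3.23% to 16.3%, it overlapped both. The oligodendrocyte-gene-rich nuclei were not taken out of the classes with and without Lhx6 counts, so these sets share nuclei. Their lack of GABA-gene cut sites was set after thinning only, so interneurons may be among them. The part of such nuclei in the Prox1 difference was not tested. The median depth before thinning was 6690.5 to 26486 cut sites in these nuclei, 8983 to 50314 in the nuclei with Lhx6 counts after thinning and 8310 to 45090 in those without.

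Adarb2 shares were lower with Lhx6 counts in all 4 libraries, at 18.9% against 23.7%, 10.1% against 10.9%, 41.7% against 49.1% and 25.2% against 27.5%. The Wilson intervals of the classes overlapped in cortex replicate 2 and hippocampus replicate 2. The oligodendrocyte-gene-rich nuclei lay below both classes, at 17.6%, 5.97%, 33.3% and 13.4%. Sp9 shares were higher with Lhx6 counts in all 4 libraries, the most in hippocampus replicate 2, at 37.3% against 29.6%. There the oligodendrocyte-gene-rich nuclei had 9.54%. The Sp9 intervals overlapped in every library but hippocampus replicate 2, where they were 34.1% to 40.7% and 27.8% to 31.6%. Sp8 was found in 5.56% of nuclei without and 2.03% with Lhx6 counts in cortex replicate 1. In hippocampus replicate 1 it was found in 0 of 1688 nuclei with Lhx6 counts, which allows a share of up to 0.178%. Intervals and limits cover counting error only. Without thinning, with the classes set by all Lhx6 counts, Prox1 was found in 53.5% of nuclei with and 74.0% without Lhx6 counts in cortex replicate 1, but in 26.1% and 20.8% in hippocampus replicate 1.

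**Figure D4:**
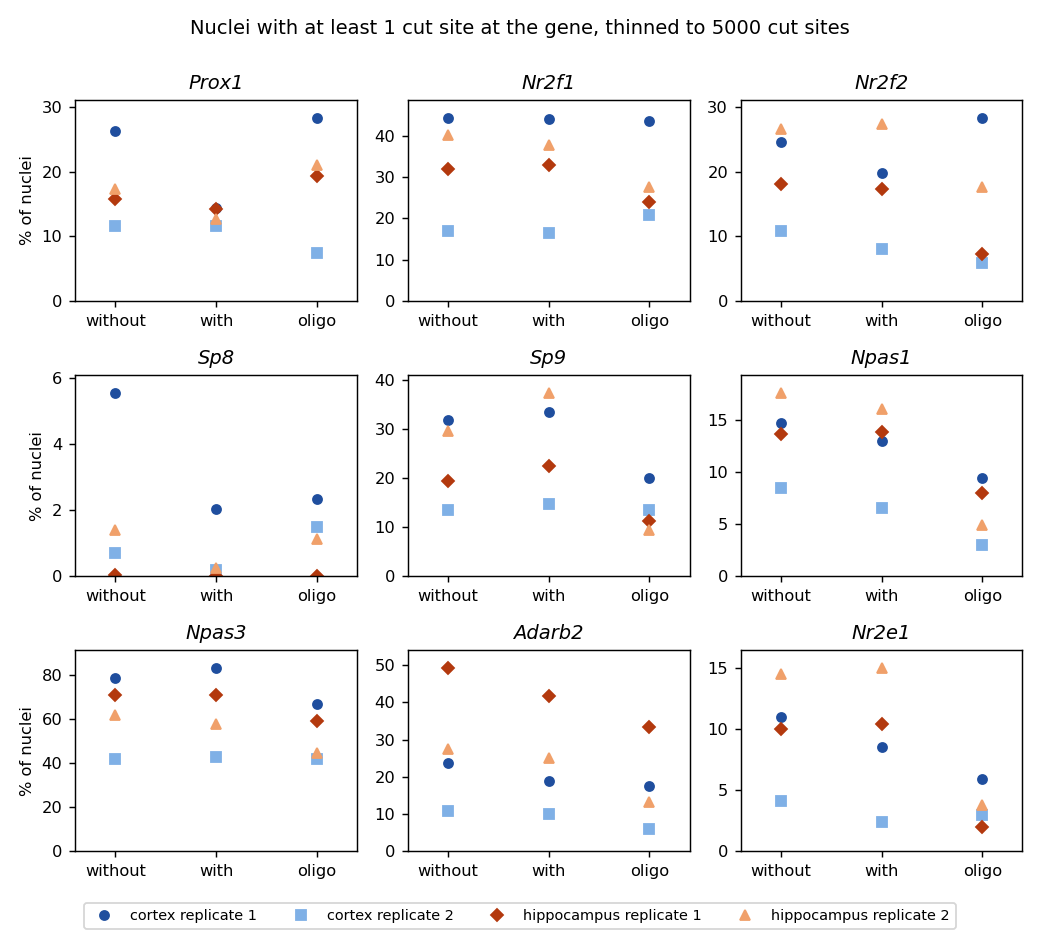
Share of nuclei (%, y axis from 0) with at least 1 cut site in the gene's peaks after thinning to 5000 cut sites. The x axis gives nuclei without and with Lhx6 cut sites and nuclei rich in oligodendrocyte-gene cut sites ("oligo"). The oligo nuclei had no GABA-gene cut site after thinning. Each point is a library, and oligo nuclei are also counted in the class without or with Lhx6 cut sites. The Sp9 share is higher with Lhx6 counts in every library, with overlapping intervals except in hippocampus replicate 2. Prox1 in the oligo class reaches 28.2% in cortex replicate 1.

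Whether the Lhx6 split itself differed between brain regions was tested as an interaction. It did for 2 members, against a background of 0.226% of genes. Nr2e1 had 20.3 and 5.73 CPM with Lhx6 counts in cortex and 49.2 and 12.6 CPM without, whereas in hippocampus it had 26.8 and 33.0 CPM with and 25.5 and 37.0 CPM without. The ratio of with to without was lowest in cortex replicate 1 at 0.41, and cortex replicate 2 was also lower with Lhx6 counts, while hippocampus replicate 1 was slightly higher with Lhx6 counts, at 1.05. The interaction (hippocampus minus cortex) was 1.19 ± 0.16 on the log2 scale (adjusted p = 0.00398, edgeR). Nr2f2 had 55.9 and 25.7 CPM with Lhx6 counts in cortex and 82.5 and 38.4 CPM without, against 61.0 and 83.7 CPM with and 62.7 and 84.0 CPM without in hippocampus. Its interaction was 0.55 ± 0.10 (adjusted p = 0.0335, edgeR). The interaction passed with each library left out for Nr2e1 but not for Nr2f2, which failed without either hippocampal library. With the thinned gate neither passed, at 0.70 for Nr2e1 (adjusted p = 0.163) and 0.26 for Nr2f2 (adjusted p = 0.771). For Prox1 the interaction was 0.71 ± 0.44 and did not pass. It passed without cortex replicate 2, at 1.09, and was -0.09 without cortex replicate 1. Adarb2, at 0.17 ± 0.16, likewise passed only without cortex replicate 2, at 0.40.

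The members were also read across splits by other interneuron genes. A nucleus with such counts is likewise not taken as a cell that expresses the gate gene. Nuclei with Sst counts made up 5.62% to 30.9% of a library, those with Pvalb counts 12.4% to 58.1% and those with Lamp5 counts 5.01% to 32.6%. Vip had no peak in hippocampus, so the Vip split used the cortical libraries alone, with 201 nuclei (8.54%) and 57 nuclei (1.36%).

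With Sst counts 5 members were lower and none was higher, against 10.3% of genes called. Prox1 had 46.2, 20.9, 28.5 and 21.0 CPM with Sst counts and 68.2, 33.3, 45.5 and 51.7 CPM without, and the log2 difference of -0.72 ± 0.09 passed (adjusted p = 2.53e-08, edgeR). Adarb2 was lower by a similar amount, at -0.71 ± 0.10, and both passed with each library left out. Sp8 at -1.10 ± 0.29, Nr2e1 at -0.52 ± 0.12 and Sp9 at -0.19 ± 0.06 also passed. Without cortex replicate 1 Nr2e1 and Sp9 did not pass and Sp8 was too low to be fitted, and Sp9 also did not pass without cortex replicate 2 or without hippocampus replicate 2. Sp8 and Sp9 were each lower with Sst counts in 3 of 4 libraries. The Sp9 call was also lost with DESeq2, a gate of 2 cut sites and the thinned gate (adjusted p = 0.133, 0.184 and 0.399). The Sp8 call was lost with DESeq2 (adjusted p = 0.354) and with the thinned gate (adjusted p = 0.154, edgeR).

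With Pvalb counts 5 members passed, against 18.1% of genes. Sp9 was higher at 0.30 ± 0.05, and lower were Nr2e1 at -0.61 ± 0.09, Npas1 at -0.48 ± 0.10, Adarb2 at -0.38 ± 0.07 and Sp8 at -1.20 ± 0.24. Npas1 had 29.6, 12.8, 42.2 and 38.1 CPM with Pvalb counts and 46.8, 26.8, 45.9 and 48.7 CPM without. With DESeq2 it did not pass (adjusted p = 0.0553). With Sst counts it did not pass, at 0.19 ± 0.09, and it was higher in 3 of 4 libraries. The difference between these gates was not tested. Sp8 was lower with Pvalb counts in 3 of 4 libraries, with a ratio of 2.68 in the other, and did not pass without cortex replicate 1 (adjusted p = 0.128, edgeR) or with DESeq2 (adjusted p = 0.105).

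With Vip counts 2 members were higher, against 1.03% of genes. With only 2 libraries, the p-values of this split rest largely on the spread shared by all genes. Prox1 had 109 and 45.8 CPM in nuclei with Vip counts of cortex replicates 1 and 2 and 55.0 and 32.2 CPM without, a difference of 0.87 ± 0.20 (adjusted p = 0.00276, edgeR). Nr2e1 had 48.5 and 38.6 CPM with and 21.5 and 10.7 CPM without, a difference of 1.38 ± 0.31 (adjusted p = 0.00315, edgeR). Npas1, Adarb2 and Nr2f2 were also higher in both cortical libraries, at 0.78 ± 0.27, 0.66 ± 0.26 and 0.59 ± 0.20, but did not pass. With a gate of 2 cut sites, which left 6 nuclei in cortex replicate 2, the values were 1.06 for Prox1 and 1.205 for Nr2e1, and with the thinned gate 0.78 and 1.44, but no member passed under either.

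With Lamp5 counts 2 members were higher, against 0.916% of genes, and the differences were small: Adarb2 at 0.26 ± 0.07 and Sp9 at 0.18 ± 0.05. Both were higher in 4 of 4 libraries, yet neither passed with the thinned gate or without cortex replicate 1 or either hippocampal library. Prox1 did not pass, at 0.07 ± 0.07, higher in 2 of 4 libraries. Nr2f1 passed in none of the 5 splits, with differences between -0.09 and 0.21.

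**Figure D5:**
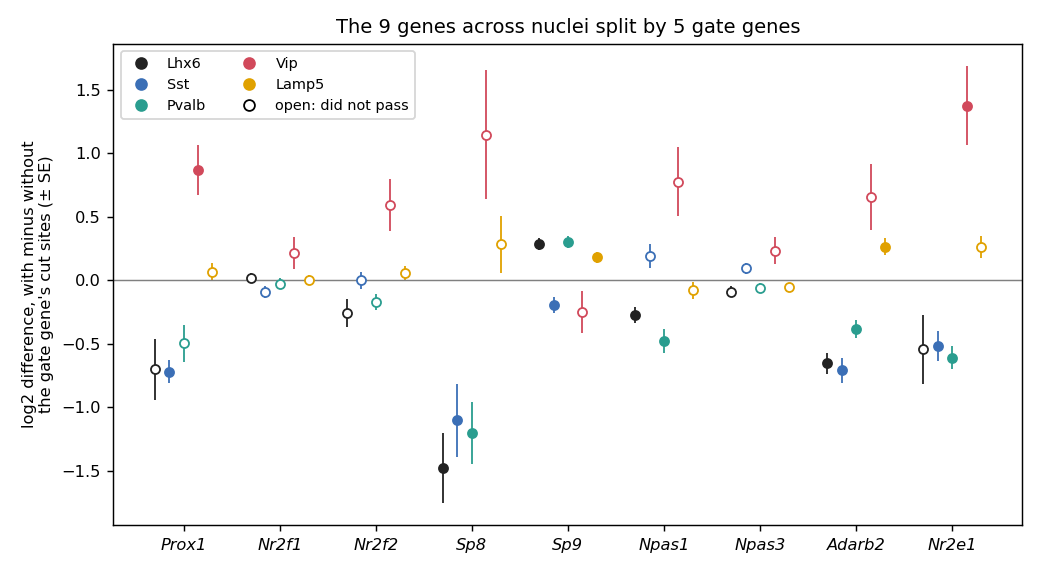
Log2 difference in gene accessibility between nuclei with and without cut sites at each of 5 gate genes (y axis) for the 9 genes (x axis). Bars are ± SE derived from edgeR's F value, and symbols are filled where edgeR's adjusted p was under 0.05. Prox1 lies below 0 for Lhx6, Sst and Pvalb and at 0.87 for Vip, and Sp9 lies above 0 for Lhx6, Pvalb and Lamp5 and below 0 for Sst.

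The motif tables gave the count of each nucleus over peaks with a motif, read in this way from the 10x format because the files do not define it. Of the 6 motifs, 4 belonged to NR2F receptors (NR2F1_MA0017.2, NR2F2_MA1111.1, Nr2f6_MA0677.1 and Nr2f6(var.2)_MA0728.1), where Nr2f6 is a relative and no member. SP8_MA0747.1 had 5560 to 6412 CPM of the motif counts in the 4 libraries and PROX1_MA0794.1 had 7.43 to 13.6 CPM, the highest and the lowest of the 6. Between brain regions none of the 6 passed, nor did any of the 579 motifs (0% called), and 1 motif, not a member, had an unadjusted p under 0.05. DESeq2 likewise called 0 motifs.

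By Lhx6 counts 2 of the 6 motifs passed, against 30.1% of all motifs called. SP8_MA0747.1 had 5763, 5534, 5605 and 6310 CPM with Lhx6 counts and 6120, 5601, 5812 and 6499 CPM without. It was lower in all 4 libraries, with ratios of 0.942 to 0.988, and the log2 difference was -0.05 ± 0.01 (adjusted p = 0.0142, edgeR). Nr2f6_MA0677.1 differed by -0.04 ± 0.01 (adjusted p = 0.0308, edgeR). Neither passed with the thinned gate or without either hippocampal library, and Nr2f6_MA0677.1 did not pass without cortex replicate 1. The NR2F1, NR2F2 and PROX1 motifs differed by 0.01 ± 0.01, 0.00 ± 0.01 and -0.01 ± 0.02.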

How the data were processed

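Single-nucleus ATAC libraries from GFP+ nuclei of P30 Dlx6aCre;Sun1/sfGFP mice (2 from cortex, 2 from hippocampus) were analysed from the deposited raw counts, which are cut sites per peak and nucleus and, in a further table, counts per motif and nucleus. Per the labels, the submitters' processing notes name Cell Ranger ATAC 1.2.0 and GRCm38 (mm10). Peaks were called by the authors' pipeline in each library, so peak sets and lengths followed depth. The deposited values listed as other are peak positions, barcodes and motif names.

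Peaks were merged into 185260 regions, of which 46698 had a peak in every library, and regions were assigned to GENCODE M21 protein-coding genes (gene body plus 2000 bp upstream). Counts were summed over nuclei by library and by class, and the sums, not nuclei, were tested. The gene, region and motif tests used edgeR 4.0.16 (TMM normalization, quasi-likelihood test, R 4.3.3) with Benjamini-Hochberg adjustment at 0.05 over all features. This test returns no SE, so each SE given is the absolute log2 difference divided by the square root of the test's F value. Splits by a gate gene (at least 1 cut site in its peaks) had library as a block. DESeq2 1.42.0, other size factors, filters, gates and leaving out each library were alternatives. The fits were tested on simulated data. Thinning to 5000 cut sites used Python 3.11.15, and shares of nuclei used a separate draw from that of the gate. Sequences came from the RefSeq GRCm38 genome. No doublet caller was run.

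All 9 genes and 6 motifs are named. Of every other list, up to 3 genes with the largest differences among those passing were named. Per gene, the promoter region with most cut sites and the 2 distal regions with the smallest p were named, beside the third Prox1 region that passed and the Reln value, which were chosen after their values were seen. Some genes of these lists are not reported here. The members and lists were chosen with earlier results of these data known.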

Additional observations from a re-analysis of the deposited data

Results flagged for a closer look

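The difference between nuclei with and without Lhx6 counts itself differed between brain regions for Nr2e1 and Nr2f2, as tested by an interaction term (edgeR). For Nr2e1 the interaction was 1.19 ± 0.16 (hippocampus minus cortex, log2, adjusted p = 0.00398), and for Nr2f2 it was 0.55 ± 0.10 (adjusted p = 0.0335). Neither passed when the Lhx6 gate was thinned to 5000 cut sites. The share of nuclei with Lhx6 counts was 79.2% and 17.4% in the cortical libraries and 47.0% and 40.8% in the hippocampal ones, and the part of this depth difference was not tested. The Nr2e1 region is shared with Ostm1.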

How the results depend on the processing

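Sp8 rested on 7 cut sites in hippocampus replicate 1 and 37 in cortex replicate 2. Of the counts of called members under alternatives, 82 stayed within 1.5 times the reported count, 4 were larger and 33 smaller, and of single values 889 kept direction and call, 33 gained a call, 85 lost it and 49 changed sign. Causes were not tested. The cortex-hippocampus gene test with the replicate block, as without it, called 0 members and 0 genes, and the replicate numbers are not known to pair libraries. The Vip split could not be fitted without a library, since 1 library would remain.

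With DESeq2 the called members numbered 0 in the Lamp5 split, 1 in the interaction, 5 in the distal test, 1 in the Lhx6 motif test, 13 in the region test, 3 in the Pvalb split and 3 in the Sst split. With RLE size factors the Lhx6 motif test called 1. With a gate of at least 2 cut sites the Lamp5 split called 1 and the Vip split 0. With the thinned gate the Lamp5 split, the interaction, the Lhx6 motif test and the Vip split called 0 and the Sst split 3. In nuclei with GABA gene counts the Lamp5 split called 0, the interaction 1, the Lhx6 motif test 1 and the region test 5. In the Lhx6 gene test, regions at least 50% covered gave 1 and no library block gave 0. Such regions lay at Npas1 and Npas3 alone among the members, so the other members were not tested, and the 1 call was Npas3 at -0.57 (adjusted p = 0.000307), which was not called in the reported test. Leaving out a library gave 0 to 2 called members in the Lamp5 split, 1 to 4 in the interaction, 0 to 4 in the distal test, 0 to 2 in the Lhx6 motif test, 1 to 11 in the region test, 2 to 6 in the Sst split and 0 to 4 in the cortex-hippocampus gene test.

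Over all features, the Lhx6 gene test called 1732 genes, 1354 with DESeq2, 957 with the thinned gate, 1174 with own peaks, 1168 with regions at least 50% covered, 606 in nuclei with GABA gene counts, 1 without the library block and 619 to 1525 without a library. The promoter test called 1246, 227 with the thinned gate and 405 in GABA nuclei. The distal test called 993, 434 in GABA nuclei and 2 without hippocampus replicate 2. The region test called 5361, 9725 with DESeq2, 1797 in GABA nuclei and 205 without hippocampus replicate 2. The motif test called 174, 1 with the thinned gate and 81 in GABA nuclei. The interaction called 33, 7 with DESeq2, 14 with the thinned gate, 5 in GABA nuclei and 1358 without cortex replicate 2. The Sst split called 1505 and 619 with the thinned gate, the Pvalb split 2642, 1661 with DESeq2 and 1200 thinned, the Vip split 150, 18 thinned and 70 in GABA nuclei, and the Lamp5 split 134, 63 with DESeq2, 51 thinned and 62 in GABA nuclei.

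Signs changed in small log2 differences. In the Lamp5 split, Nr2f1 was 0.0042 with RLE, 0.024 with the gate of 2 and 0.024 thinned, and Sp8 was -0.081 with DESeq2. In the interaction, Npas1 was -0.097 thinned and Nr2f1 -0.021 with the gate of 2. In the Lhx6 gene test, Npas1 was 0.0025 with regions at least 50% covered and Nr2f1 -0.028 in GABA nuclei, and at promoters Nr2f1 was -0.029 in GABA nuclei. The PROX1 motif was 0.0028 with DESeq2 and 0.0037 with RLE. The Npas1 region chr7:16465061-16465720 was 0.016 with the gate of 2 and 0.084 thinned. In the Sst split Nr2f2 was -0.021 in GABA nuclei. Between brain regions, with regions at least 50% covered, Npas1 was -0.10 and Npas3 -0.11, and the NR2F1 motif was 0.027 with DESeq2, 0.027 with RLE and 0.0040 with the replicate block.

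Ranges over leaving out a library that crossed 0 were as follows. In the Lamp5 split Nr2f1 ran from -0.039 to 0.014 and Sp8 from -0.66 to 0.52. In the interaction Adarb2 ran from -0.24 to 0.40 and Prox1 from -0.094 to 1.09. Of the Lhx6 motif values NR2F2 ran from -0.00099 to 0.023 and PROX1 from -0.020 to 0.0074. The Prox1 region chr1:190143449-190144512 ran from -0.47 to 0.13 and the Npas1 region above from -0.15 to 0.017. In the Pvalb split Nr2f1 ran from -0.068 to 0.035, and in the Sst split Nr2f2 from -0.037 to 0.032. Between brain regions Npas3 ran from -0.13 to 0.59, Nr2f1 from -0.20 to 0.55, Prox1 from -0.36 to 0.54, Sp8 from -4.85 to 0.37 and Sp9 from -0.27 to 1.27. For motifs between brain regions NR2F1 ran from -0.085 to 0.16, NR2F2 from -0.017 to 0.56, Nr2f6(var.2) from -0.13 to 0.33, Nr2f6_MA0677.1 from -0.14 to 0.23 and PROX1 from -0.56 to 0.26.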
